A study of Mus musculus with 16 samples.

Results

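The genes for the 2 mouse ARTC2 ecto-enzymes (Art2a and Art2b), for the ion channel P2X7 (P2rx7) and for the ecto-enzyme CD38 (Cd38) were followed in RNA-Seq of memory CD4+ T cells. They were found by gene symbol and are 4 of the 56748 genes counted. All 4 passed the filter on low counts in every comparison. Splenic T cells were enriched for CD4 with magnetic beads and sorted as memory CD4+ cells by surface markers, among them low or no CD25 and high CD44, with 4 samples in each of 4 groups. HP1a KO mice (HP1α KO, Hp1a-/-) came from a floxed allele deleted in all tissues by a CMV-driven Cre, and their WT littermates were Hp1a+/+. HP1g KO mice (HP1γ KO) carried Hp1g flox/flox and Cd4-cre, which acts in T cells, and their WT littermates carried Hp1g flox/flox without Cre. In the HP1γ line the loss of HP1γ and the presence of Cre therefore cannot be told apart. Both lines had a mixed 129/Sv and C57BL/6 background, and mice were sex-matched littermates of 6 to 12 weeks. For its sequencing the paper reports the use of males. No label links a number to a separate mouse, so the p-values measure the spread between these samples.

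ARTC2 proteins sit on the T cell surface on a lipid anchor and use extracellular NAD to attach ADP-ribose to other surface proteins. P2X7, a channel otherwise opened by extracellular ATP, is one of their best known targets, and its ADP-ribosylation can open it on T cells that meet NAD released from damaged cells. Opening of P2X7 is followed by shedding of surface proteins, exposure of phosphatidylserine and often death, and activated, regulatory and follicular helper T cells differ in how sensitive they are. CD38 is an ecto-enzyme that consumes NAD, which limits what ARTC2 can use.

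Art2a and Art2b lie next to each other on chromosome 7 of GRCm39, both on the minus strand. Art2a spans 101201660 to 101210072 and Art2b spans 101226177 to 101234809, with 16.1 kb between them. P2rx7 (chromosome 5, 122781942 to 122830400) and Cd38 (chromosome 5, 44025875 to 44069717) are both on the plus strand. The coding sequences of Art2a and Art2b align over 858 bases, of which 748 (87.2%) are identical. The reference genome is that of C57BL/6, and its Art2a transcript is annotated as a loss-of-function coding transcript. The annotated Art2a reading frame of 287 codons has 1 in-frame stop, at codon 161, while the reading frame of Art2b (286 codons) has none. The stretch around that codon is given for each gene, 5′ to 3′ on the coding strand, because it marks where the reference copy of Art2a differs in kind from Art2b. Capitals mark codon 161 of each gene, at chr7:101204054-101204056 in Art2a and chr7:101229415-101229417 in Art2b.
Art2a, chr7:101204018-101204092: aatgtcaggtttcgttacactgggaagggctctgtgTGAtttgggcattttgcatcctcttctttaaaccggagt
Art2b, chr7:101229379-101229453: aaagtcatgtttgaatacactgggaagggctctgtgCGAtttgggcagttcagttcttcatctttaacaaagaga
Which Art2a allele these mice of mixed background carried was not analysed here.

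Reads from the pair can be hard to place. The longest stretch without a difference between the transcripts is 125 bases long, and it is given here because a read trimmed to lie inside it fits both genes equally well.
Art2a (chr7:101204319-101204443) and Art2b (chr7:101229680-101229804): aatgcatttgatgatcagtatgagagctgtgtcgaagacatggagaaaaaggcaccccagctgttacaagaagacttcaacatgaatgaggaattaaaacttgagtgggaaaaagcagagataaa
None of the 1108 windows of 150 bases (the read length) in the Art2a transcript is found whole in an Art2b transcript. The estimated counts of Art2a and Art2b were not whole numbers in any of the 16 samples, and those of P2rx7 and Cd38 were whole in all 16. Counts that are not whole arise where reads are divided among genes that they fit, so the values of Art2a and Art2b carry that uncertainty, and how the reads were divided was not tested.

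Library totals ran from 26.7 to 40.2, in units of 1000000 estimated counts. T cell markers (Cd3e, Cd3d, Cd3g, Cd4, Cd5 and Lck) summed to between 3227 and 3834 TPM (a level corrected for gene length, with the same total of 1000000 in each sample), with 6 of 6 present in every group. B cell markers (7 genes) summed to between 5.82 and 21.8 TPM and myeloid markers (6 genes) to between 34.6 and 128 TPM. Erythroid markers (4 genes, mainly haemoglobins) varied most, from 32.7 to 2418 TPM, and no marker of these lists was at 0 in all samples. Each targeted gene had a lower mean in the KO samples than in their WT littermates. Cbx3, which encodes HP1γ, was at 47.5 ± 1.97 CPM (counts scaled to 1000000 per library and normalized by TMM) in HP1γ KO and 84.5 ± 8.66 in HP1γ WT (SD, n = 4 each), with a log2 fold change of -0.82 (SE 0.0790, adjusted p = 0.0015 in edgeR). Cbx5, which encodes HP1α, was at 27.1 ± 2.77 CPM in HP1α KO and 40.3 ± 9.28 in HP1α WT. The KO samples lay below every WT sample, but the log2 fold change of -0.58 did not pass across all genes (adjusted p = 0.946 in edgeR). In the HP1γ line, where Cbx5 was not targeted, it was at 25.4 ± 4.72 CPM in KO and 31.3 ± 4.98 in WT. The mean of Cbx5 in HP1α KO was thus not below that in HP1γ KO. These are RNA levels. For naive CD4+ T cells, the paper reports that HP1α was fully missing in HP1α KO and that HP1γ was nearly all lost in HP1γ KO.

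P2rx7 was the most abundant of the 4 genes at 96.1 ± 17.8 TPM over the 16 samples, above 89.1% of the 15776 genes kept. Art2b followed at 39.9 ± 12.3 TPM, above 74.8% of them. Art2a stood at 7.09 ± 3.37 TPM and Cd38 at 5.47 ± 1.34 TPM, above 43.5% and 40.05% of the genes. The ranges of P2rx7 (66.8 to 123 TPM) and Art2b (24.7 to 71.4 TPM) met at their ends. Those of Art2a (3.199 to 13.8 TPM) and Cd38 (3.399 to 8.38 TPM) overlapped through most of the length of the Cd38 range. The order of Art2a and Cd38 depended on the group. By mean, Art2a was above Cd38 in HP1γ WT (9.66 against 5.24 TPM), HP1α WT and HP1α KO, and below it in HP1γ KO (4.46 against 5.67 TPM). The difference between the 2 genes was not tested. The lowest count of any of the 4 genes in any sample was 58.8, for Art2a in HP1γ KO replicate 1.

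**Figure D1:**
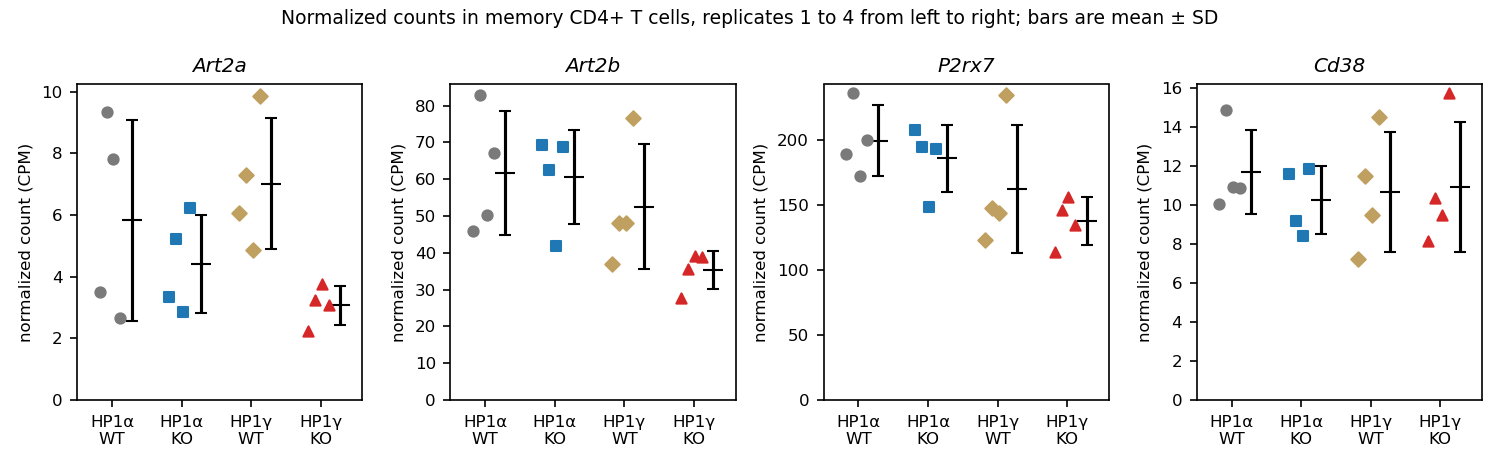
Normalized counts (CPM, linear axis from 0) of Art2a, Art2b, P2rx7 and Cd38 in each sample by group, with the mean ± SD (n = 4) beside the points, which run from replicate 1 at the left to replicate 4. In HP1γ KO, Art2a lies between 2.24 and 3.76 CPM, below all 4 HP1γ WT samples, while the groups overlap for the other 3 genes.

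The first question was whether loss of either HP1 isoform changed these genes in memory cells. A gene was called when its adjusted p in edgeR's quasi-likelihood test, corrected over all genes tested, was under 0.05. In HP1α KO against WT, 0 of the 4 genes were called, with a background of 0% (0 of 14881 genes called). There, 635 of the 14881 genes had an unadjusted p under 0.05, beside 1784 of 14975 in HP1γ KO against WT. DESeq2 called 5 genes in HP1α KO, none of them among the 4. In HP1γ KO against WT, 0 of the 4 were called and the background was 0.327% (49 of 14975 genes). The gene nearest to a call was Art2a in the HP1γ line.

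Art2a had a lower level in each HP1γ KO sample than in any HP1γ WT sample. It was at 2.24, 3.23, 3.76 and 3.08 CPM in HP1γ KO replicates 1 to 4, and at 6.06, 7.29, 4.86 and 9.85 CPM in HP1γ WT replicates 1 to 4. The 2 groups did not overlap, as was the case for 7.1% of all genes in this comparison. The log2 fold change was -1.18 (SE 0.235, 95% interval -1.70 to -0.66), a level of 3.08 ± 0.630 against 7.02 ± 2.13 CPM. Its unadjusted p of 0.000487 in edgeR ranked 77th of 14975 genes, and the adjusted p of 0.0946 missed the threshold. DESeq2 called the same difference (log2 fold change -1.18, adjusted p = 0.000238, among 252 genes called). Without the filter on low counts, edgeR called it too (-1.19, adjusted p = 0.0350, among 73 of 27308 genes). The call thus depends on the setting.

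Art2b had a lower mean in HP1γ KO, with a smaller difference than Art2a. Its HP1γ KO samples were at 27.8, 35.7, 39.0 and 38.8 CPM, and its HP1γ WT samples at 37.0, 48.0, 48.1 and 76.7 CPM. The groups overlapped, since the lowest WT sample lay below the 2 highest KO samples. On the log2 scale the difference was -0.56 (SE 0.199, 95% interval -1.002 to -0.118), with an adjusted p = 0.354 in edgeR. Before adjustment its p was 0.0179. An unadjusted p under 0.05 was seen in 11.9% of all genes in this comparison (1784 genes). Without HP1γ WT replicate 4, the highest sample, the log2 fold change was -0.33 (adjusted p = 0.498 in edgeR). With the counts of Art2a and Art2b added up before the test, the log2 fold change was -0.62 and the adjusted p was 0.307 in edgeR.

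P2rx7, the target of ARTC2, was at 114, 147, 156 and 134 CPM in HP1γ KO and at 123, 148, 144 and 235 CPM in HP1γ WT. Replicates 1 to 3 of the WT lay within the range spanned by the KO samples, and only WT replicate 4 lay above it. The log2 fold change was -0.23 (SE 0.181, 95% interval -0.63 to 0.17, adjusted p = 0.638 in edgeR), and it was -0.01 without HP1γ WT replicate 4. The interval over all 8 samples reaches from a fall by 35.4% to a rise by 12.7%.

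Cd38, the NAD-consuming enzyme, was at 8.15, 10.4, 9.47 and 15.7 CPM in HP1γ KO and at 7.23, 11.5, 9.45 and 14.5 CPM in HP1γ WT. Both groups covered nearly the same range, with replicate 4 highest in each. KO exceeded WT by 0.05 on the log2 scale (SE 0.241, 95% interval -0.49 to 0.58, adjusted p = 0.956 in edgeR), and without HP1γ KO replicate 4 it was -0.19.

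Markers of other cell types were summed for the same samples of the HP1γ line, and their ranges overlapped between KO and WT in the 4 lists given here. Erythroid markers, 4 of 4 above 1 TPM in both groups, summed to between 163 and 2418 TPM in HP1γ KO and between 83.9 and 1043 TPM in HP1γ WT. Dendritic markers (5 genes) summed to between 28.0 and 119 TPM in HP1γ KO and between 13.5 and 50.3 TPM in WT, mostly through Siglech, a marker of plasmacytoid cells, and the highest sum belonged to HP1γ KO replicate 4, the sample with the most Cd38. Markers of innate-like T cells (4 genes) summed to between 48.9 and 73.9 TPM in HP1γ KO and between 68.4 and 94.7 TPM in WT. Those of regulatory T cells (5 genes) reached far higher sums, between 561 and 865 TPM in HP1γ KO and between 553 and 701 TPM in WT. Foxp3 among them had a mean of 52.9 TPM over the 16 samples, although the cells were sorted for low or no CD25. No gene of these 4 lists was at 0 throughout, and the part of these cells in the values of Art2a, Art2b, P2rx7 and Cd38 was not tested. In bulk RNA, fewer cells that express a gene and less RNA of it per cell cannot be told apart.

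In the HP1α line the samples of KO and WT overlapped for all 4 genes. Art2a was at 3.35, 5.22, 2.86 and 6.23 CPM in HP1α KO and at 3.5, 9.35, 7.82 and 2.65 CPM in HP1α WT. The WT samples fell into a lower and a higher pair, and the KO samples lay within their range. On the log2 scale KO differed from WT by -0.40 with a wide 95% interval of -1.29 to 0.48 (SE 0.399, adjusted p = 0.946 in edgeR), and it ran from -0.64 without HP1α WT replicate 4 to -0.07 without HP1α WT replicate 2. Art2b was at 69.3, 62.4, 41.9 and 68.9 CPM in KO and at 46.0, 82.9, 50.3 and 67.2 CPM in WT. These ranges overlapped almost fully, with a log2 fold change of -0.02 (SE 0.202, adjusted p = 0.996 in edgeR).

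P2rx7 in this line was at 208, 195, 149 and 193 CPM in HP1α KO and at 189, 237, 172 and 200 CPM in HP1α WT. KO replicate 3 was the lowest of the 8 samples and WT replicate 2 the highest, and the other 6 lay together. The log2 fold change of -0.10 (SE 0.118, adjusted p = 0.952 in edgeR) had a 95% interval from a fall by 22.2% to a rise by 11.8%. Cd38 was at 11.6, 9.16, 8.39 and 11.8 CPM in KO and at 10.1, 14.8, 10.9 and 10.9 CPM in WT. KO lay at -0.19 relative to WT on the log2 scale (SE 0.154, 95% interval -0.53 to 0.15, adjusted p = 0.946 in edgeR). None of the 4 genes had groups that did not overlap here, against 2.96% of all genes.

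**Figure D2:**
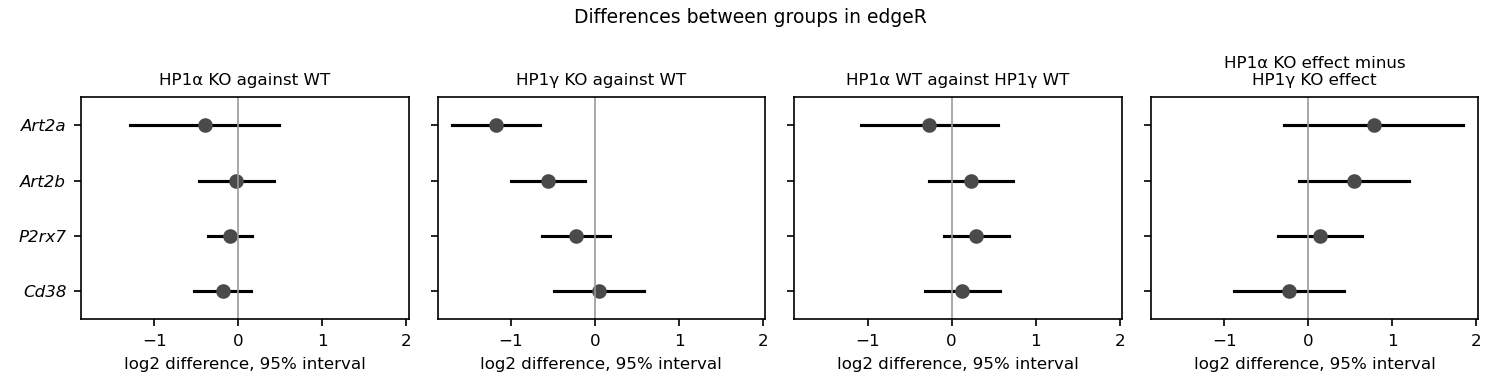
Log2 differences of the 4 genes with 95% intervals in the 4 comparisons, from edgeR's quasi-likelihood fit; the last panel subtracts the HP1γ KO effect from the HP1α KO effect. No point passed an adjusted p under 0.05, and the intervals of Art2a (-1.70 to -0.66) and Art2b (-1.002 to -0.118) in HP1γ KO against WT do not reach 0.

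Whether the KO effect differed between the lines was asked in one fit over the 16 samples. None of the 4 genes was called (0 of 4, background 0.0507%, 8 of 15776 genes). The HP1α KO effect minus the HP1γ KO effect was 0.78 for Art2a on the log2 scale (SE 0.504, 95% interval -0.28 to 1.85, adjusted p = 0.666 in edgeR). It was 0.54 for Art2b (SE 0.312, 95% interval -0.12 to 1.20, adjusted p = 0.613 in edgeR), 0.14 for P2rx7 (adjusted p = 0.914 in edgeR) and -0.23 for Cd38 (adjusted p = 0.882 in edgeR). The lower level of Art2a in HP1γ KO is thus not shown to be particular to that line.

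The WT littermates of the 2 lines were compared to see how far the lines differ without any deletion of HP1. They share their samples with the KO comparisons above. None of the 4 genes was called (background 12.8%, 1896 of 14804 genes), and none had groups that did not overlap (background 19.5%). P2rx7 came nearest, at 200 ± 27.2 CPM in HP1α WT and 162 ± 49.4 CPM in HP1γ WT (SD, n = 4 each), with a log2 fold change of 0.30 (SE 0.176, 95% interval -0.09 to 0.69, adjusted p = 0.293 in edgeR). HP1γ WT replicate 4 decided this result. Its P2rx7 level of 235 CPM was beside the highest HP1α WT sample (237 CPM), while the other 3 HP1γ WT samples, at up to 148 CPM, lay below all 4 HP1α WT samples. Without it the log2 fold change was 0.53 (SE 0.113, adjusted p = 0.0182 in edgeR). P2rx7 then passed the threshold, in a fit without this sample that called 2185 of 15097 genes. That sample also held the most Art2a, Art2b and Cd38 of its group, and the lowest sums of B cell (5.82 TPM) and myeloid markers (34.6 TPM) of the 16 samples. Markers of follicular helper T cells (5 genes) summed to between 246 and 335 TPM in HP1α WT and between 325 and 422 TPM in HP1γ WT, and their part in P2rx7 was not tested.

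The other 3 genes did not pass between the WT lines either. The log2 fold change of HP1α WT over HP1γ WT was -0.27 for Art2a (SE 0.369, 95% interval -1.08 to 0.55, adjusted p = 0.673 in edgeR), 0.23 for Art2b (SE 0.227, 95% interval -0.27 to 0.73, adjusted p = 0.538 in edgeR) and 0.13 for Cd38 (SE 0.200, 95% interval -0.31 to 0.57, adjusted p = 0.71 in edgeR). With a sample left out, Art2a ran from -0.60 (without HP1α WT replicate 2) to -0.02 (without HP1α WT replicate 4), and Art2b from 0.06 (without HP1α WT replicate 2) to 0.47 (without HP1γ WT replicate 4, adjusted p = 0.134 in edgeR). Ordered by mean CPM, P2rx7 ran from HP1α WT (200) over HP1α KO (186) and HP1γ WT (162) to HP1γ KO (138), and Art2b from HP1α WT (61.6) over HP1α KO (60.6) and HP1γ WT (52.5) to HP1γ KO (35.3). Art2a ran from HP1γ WT (7.02) over HP1α WT (5.83) and HP1α KO (4.41) to HP1γ KO (3.08), and Cd38 stayed between 10.2 and 11.7 in all 4 groups. Samples of neighbouring groups overlapped at each step of these orders.

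The share of Art2a in the pair was examined on its own, as the ratio within a sample does not depend on its depth. Art2a made up 8.82 ± 2.99% of the estimated counts of both genes over the 16 samples, from 3.79% to 14.03%. In HP1γ KO the share was 7.41, 8.34, 8.77 and 7.33% in replicates 1 to 4, and in HP1γ WT it was 14.03, 13.2, 9.18 and 11.4%. All KO samples thus lay below all WT samples. The mean log2 ratio of Art2a to Art2b was lower by 0.64 in KO (-3.54 ± 0.139 against -2.90 ± 0.307, SD, n = 4 each), with p = 0.0286 in a two-sided exact permutation test, the smallest p that 4 against 4 samples allow, and p = 0.0857 adjusted over the 3 comparisons made with this exact permutation test. In the HP1α line the shares overlapped, at 4.63, 7.69, 6.39 and 8.29% in KO and 7.09, 10.1, 13.5 and 3.79% in WT (exact permutation p = 0.6, adjusted p = 0.6). The WT lines differed by -0.65 in the mean log2 ratio (exact permutation p = 0.229, adjusted p = 0.343).

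**Figure D3:**
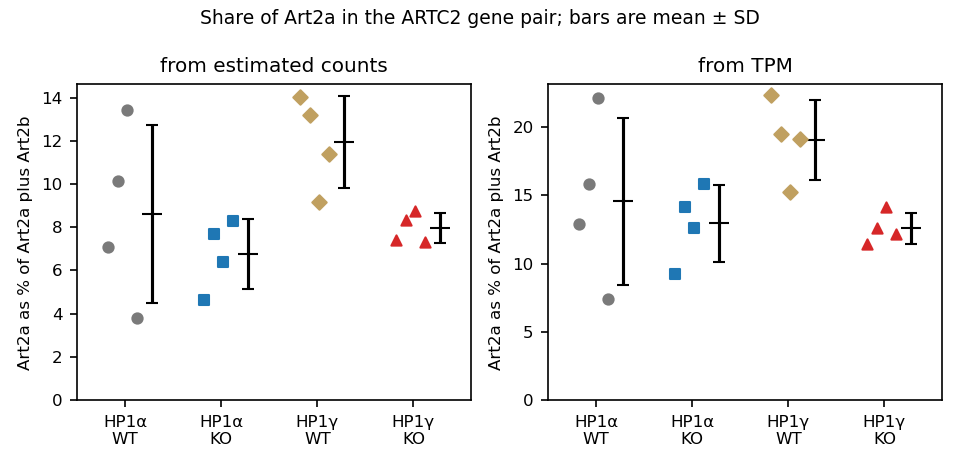
Share of Art2a in the sum of Art2a and Art2b in percent (linear axis from 0), per sample and with the mean ± SD (n = 4), from estimated counts at the left and from TPM at the right. By counts the HP1γ KO samples lie between 7.33% and 8.77% and the HP1γ WT samples between 9.18% and 14.03%, and the HP1α WT samples spread over the widest range.

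Over the 16 samples, Art2b and P2rx7, the enzyme and its target, varied together. Pearson's r of their log2 CPM was 0.932 and Spearman's rho 0.903, each with a permutation p of 1e-05, the smallest that 100000 permutations can give, and 6e-05 after adjustment over the 6 pairs of the 4 genes. Without the 2 samples farthest from the median of Art2b (HP1α WT replicate 2 and HP1γ KO replicate 1) r was 0.892. Within the lines r was 0.892 over the 8 samples of the HP1α line and 0.908 over the 8 of the HP1γ line, and after subtraction of the group means it was 0.920. Among 12532 genes with a mean of at least 1 CPM, Art2b was the gene most like P2rx7, and P2rx7 the gene most like Art2b. The part of cell composition and of library preparation, which genes of a sample share, was not tested.

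The other 5 pairs were more loosely tied. Pearson's r was 0.574 for Art2b and Cd38 (adjusted permutation p = 0.0392), 0.568 for P2rx7 and Cd38 (0.0392), 0.558 for Art2a and Art2b (0.0392), 0.456 for Art2a and P2rx7 (0.0931) and 0.376 for Art2a and Cd38 (0.153). Spearman's rho of these pairs lay between 0.382 and 0.582, with adjusted permutation p from 0.0524 to 0.145. Many other genes were tied more closely to Art2b and P2rx7. Among 12532 genes, Cd38 ranked 2433rd for Art2b and 2603rd for P2rx7, and Art2a ranked 2610th for Art2b. In the other direction, Art2b ranked 195th and P2rx7 211th for Cd38, and Art2b 451st for Art2a. Without the 2 farthest samples r of these 5 pairs was between 0.0340 and 0.391. After subtraction of the group means it was 0.799 for Art2b and Cd38, 0.699 for P2rx7 and Cd38, and between 0.491 and 0.514 for the 3 pairs with Art2a. Within the HP1α line (8 samples) r was 0.795 for Art2b and Cd38, 0.822 for P2rx7 and Cd38, 0.404 for Art2a and Art2b, 0.379 for Art2a and P2rx7 and 0.608 for Art2a and Cd38. Within the HP1γ line (8 samples) the same pairs had r of 0.575, 0.598, 0.865, 0.692 and 0.241, so the size of each relation depends on which samples are taken.

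**Figure D4:**
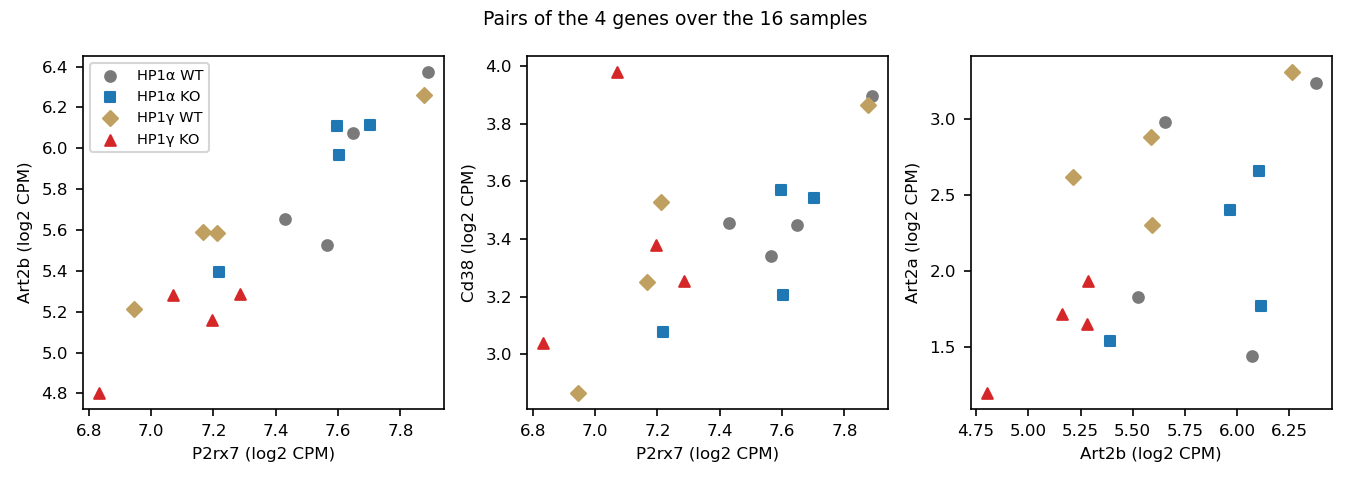
Log2 CPM of P2rx7 against Art2b and Cd38, and of Art2b against Art2a, with 1 point per sample marked by group. The 16 points of P2rx7 and Art2b follow a line (r = 0.932) within both lines of mice, and the other panels scatter more (r = 0.568 and 0.558).

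The next genes most like Art2b were Gimap4 (r = 0.919), a GTPase of lymphocytes, and Gid4 (0.906), a subunit of a ubiquitin ligase. Those next to P2rx7 were Sec23ip (0.926) and Rgs3 (0.899), a regulator of G protein signalling. Art2a was most like Atp5j (0.850), a subunit of mitochondrial ATP synthase, Nrn1 (0.844), which encodes neuritin, and Nrgn (0.841). Its own neighbour Art2b ranked 451st for it. Cd38 was most like Tmem260 (0.798), Cmtm3 (0.794) and Sec11c (0.777), a subunit of the signal peptidase. Each r is over 16 samples and is a description only.

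Around the 4 genes in the genome, no gene tested with its start within 500 kb was called in either KO comparison or in the test between lines. That holds for 19 genes around Art2a, 22 around Art2b (23 in the test between lines), 31 around P2rx7 (32 in the test between lines) and 7 around Cd38. Between the WT lines, 6 of 31 genes around P2rx7 were called (background 12.8%), each lower in HP1α WT. Of the 1896 genes called in this comparison, 1222 were lower in HP1α WT. Orai1, the pore of the store-operated calcium channel, had a log2 fold change of -1.14 (SE 0.160, adjusted p = 0.00351 in edgeR). Hvcn1, a proton channel, was at -0.44 (adjusted p = 0.0118 in edgeR) and the non-coding A930024E05Rik at -0.74 (adjusted p = 0.0120 in edgeR). Near Art2b, Xndc1 was higher in HP1α WT (0.49, adjusted p = 0.0257 in edgeR), and no gene was called near Art2a or Cd38.

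The rest of the NAD and purine system was described with 95 other genes in 9 lists, which were drawn up with earlier results of these data known. None of the 75 tested was called in HP1α KO or in HP1γ KO against WT, and none of 78 in the test between lines. The median log2 fold change of the lists together was 0.01 in HP1α KO and -0.01 in HP1γ KO, beside 0.00 for all genes in each. Between the WT lines 10 of 75 (13.3%) were called, beside 12.8% of all genes.

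Among the ecto-ADP-ribosyltransferases, the pair Art2a and Art2b held most of the RNA by length. Art3, a relative on the same kind of anchor, was at 3.16 TPM, and Art1, Art4 and Art5 were at 0.01, 0.29 and 0.32 TPM. Of these relatives, Art3 had the smallest p of the list in HP1α KO (log2 fold change 0.31, adjusted p = 0.946 in edgeR). Art5 came nearest between the WT lines (-1.37, adjusted p = 0.0568 in edgeR) at a level under 1 CPM in both groups.

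Enzymes that process NAD, adenine nucleotides and adenosine, most of them on the cell surface, were led by Nt5e (CD73, which makes adenosine from AMP) at 61.2 TPM. Entpd1 (CD39, which removes phosphates from ATP) was at 15.03 TPM. Bst1 (CD157), the paralogue of Cd38, was at 0.30 TPM, so Cd38 was the more abundant of that pair. None of the 8 tested, Cd38 included, was called in any comparison. Adk, an enzyme inside the cell that phosphorylates adenosine, had the smallest p of the list in HP1α KO (0.18, adjusted p = 0.946 in edgeR), Enpp1, an ecto-phosphodiesterase, in HP1γ KO (-0.21, adjusted p = 0.434 in edgeR) and Entpd1 between the WT lines (-0.20, adjusted p = 0.186 in edgeR).

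P2rx7 was by far the most abundant P2X receptor. P2rx4, another ATP-gated channel, followed at 22.3 TPM, P2rx1 was at 0.70 TPM, and P2rx2, P2rx3 and P2rx5 were under 0.10 TPM, with P2rx6 listed at 0. P2rx4 had the smallest p of these receptors in HP1α KO (0.15, adjusted p = 0.946 in edgeR). Of the receptors for other nucleotides and adenosine, P2ry10 (129 TPM), known as a receptor for lysophosphatidylserine, and Adora2a (112 TPM), an adenosine receptor that raises cyclic AMP, were the most abundant. Adora2a was lower in HP1α WT than in HP1γ WT (101 against 198 CPM, log2 fold change -0.98, SE 0.166, adjusted p = 0.00706 in edgeR) and was the 1 of 7 tested genes of its list that was called. P2ry6 and P2ry1 had the smallest p of this list in HP1α KO (0.87, adjusted p = 0.946 in edgeR) and HP1γ KO (-0.43, adjusted p = 0.491 in edgeR). The level of P2ry6 was low, at 0.38 CPM in HP1α KO and 0.20 CPM in HP1α WT.

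Of 11 genes for the events that follow opening of P2X7, 10 passed the filter on low counts, and none was called in any comparison. They include the ATP-release channel Panx1 (70.2 TPM), the sheddases Adam10 (58.2 TPM) and Adam17 (36.2 TPM), and the scramblase Ano6 (33.0 TPM). Il6ra, a receptor that is shed, had the smallest p in HP1α KO (0.07, adjusted p = 0.946 in edgeR) and Adam10 in HP1γ KO (-0.15, adjusted p = 0.451 in edgeR). Gsdmd, which forms pores in the membrane, lay at the threshold between the WT lines (0.21, adjusted p = 0.0501 in edgeR).

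The 2 lists with the most tested genes, 12 for NAD synthesis and import and 22 for NAD use inside the cell, held 8 of the 10 called between the WT lines. Over all genes 12.8% were called in this comparison, and no list was tested as a set. Of the 12 tested genes for NAD synthesis and import, Nampt, the rate-limiting enzyme of NAD salvage, was lower in HP1α WT (52.6 against 95.6 CPM, log2 fold change -0.86, SE 0.148, adjusted p = 0.00738 in edgeR), as was Nmrk1, a kinase for nicotinamide riboside (-0.97, adjusted p = 0.00553 in edgeR). Nadsyn1 and Nmnat3, which act in NAD synthesis, were higher (0.51 and 0.46, adjusted p = 0.0155 and 0.0470 in edgeR). Of 22 NAD-consuming enzymes inside cells, the deacetylase Sirt1 was lower (-0.63, adjusted p = 0.00362 in edgeR) and Sirt7, Parp11 and Parp2 were higher (0.38, 0.74 and 0.31, adjusted p = 0.0172, 0.0361 and 0.0441 in edgeR). Oard1, which removes ADP-ribose, was higher (0.50, adjusted p = 0.0147 in edgeR), 1 of 7 in its list, and none of 6 channels opened by NAD products was called. In the KO comparisons the genes of these lists with the smallest p were Qprt (0.28), Sirt7 (0.14), Ryr3 (-0.30) and Macrod1 (0.30) for HP1α and Nmnat2 (0.41), Parp9 (-0.21), Ryr3 (0.22) and Nudt5 (-0.24) for HP1γ, all as log2 fold changes with adjusted p of at least 0.248 in edgeR. Ryr2 came nearest among the channels between the WT lines (-0.90, adjusted p = 0.0631 in edgeR). The test between the lines of mice gives the HP1α KO effect minus the HP1γ KO effect on the log2 scale. There, the genes with the smallest p in their lists were Art2b, Enpp1 (0.30), P2rx4 (0.26), P2ry12 (-2.27), Adam17 (-0.18), Nadk (0.20), Sirt2 (0.17), Ryr3 (-0.51) and Nudt9 (0.20). Their adjusted p was at least 0.327 in edgeR. P2ry12 had a low level, with group means between 0.11 and 0.39 CPM.

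**Figure D5:**
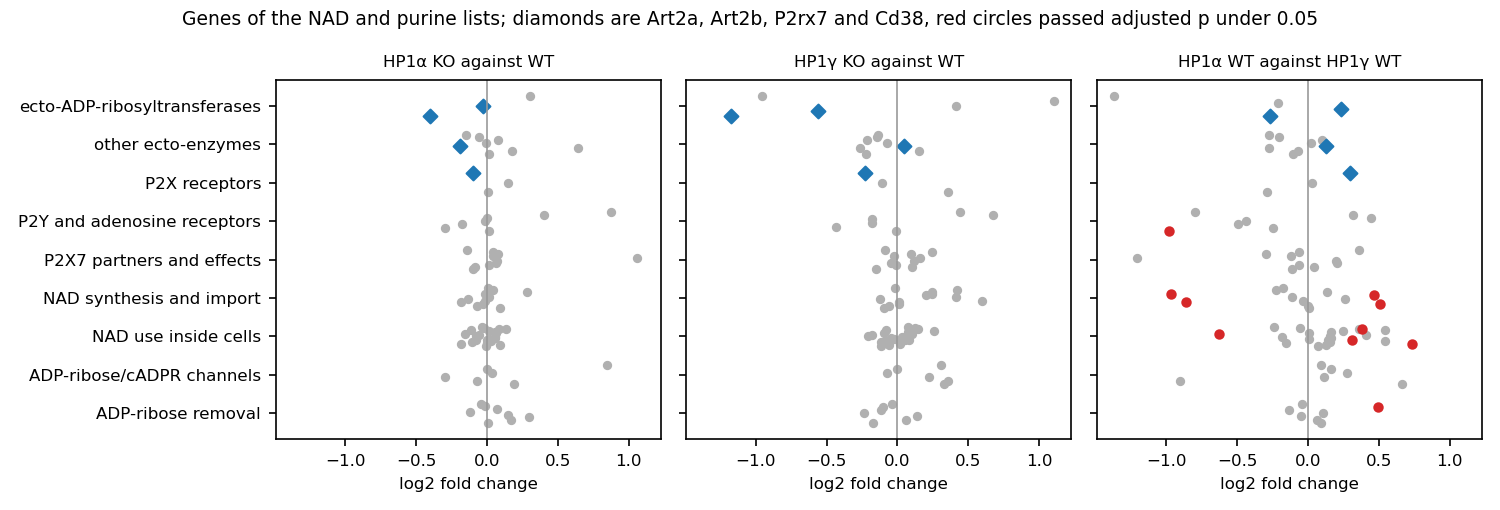
Log2 fold changes of the tested genes of the 9 NAD and purine lists in the 3 comparisons of 2 groups, with Art2a, Art2b, P2rx7 and Cd38 as diamonds, genes with an adjusted p under 0.05 as red circles and the others in grey. Red circles appear between the WT lines, where 6 genes are higher and 4 lower in HP1α WT, and in neither KO comparison.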

How the data were processed

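RNA-Seq of sorted splenic memory CD4+ T cells was analysed in 16 samples, grouped by line, genotype and replicate from their titles. A treatment label about transferred cells does not match the paper's account of these samples and was not used. Per the paper's methods, poly(A) RNA was made into stranded libraries and the reads were trimmed, aligned with STAR to GRCm39 and quantified with Salmon in the nf-core pipeline. The authors deposited estimated counts per gene, not normalized, of which 11.6% were not whole, and TPM, which sum to 1000000 in each sample. Counts keep the depth and TPM do not, so counts were tested and TPM compared levels between genes.

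Estimated counts were rounded and tested with edgeR 4.0.16 in R 4.3.3 (TMM, default expression filter with a minimum count of 10, quasi-likelihood test, Benjamini-Hochberg over all genes), on the 8 samples of each comparison and on all 16 for the difference between lines. CPM use effective library sizes, and correlations log2 CPM with a prior count of 2. Shares and correlations were tested by permutation with SciPy 1.17.1. Alternatives were DESeq2 1.42.0, limma 3.58.1 on log2(TPM + 1) and log2(TPM + 0.1), other scalings and filters, one fit of all samples, a replicate block, a robust fit, summed Art2 genes and each sample left out. The fit was tested on simulated data. All 24 pairs of replicates differed by more than counting noise.

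GRCm39 coordinates and transcripts were taken from GENCODE, whose release differs from the authors' Ensembl release and holds 56017 of the 56748 gene identifiers. The 4 genes and all lists were chosen with earlier results of these data known. All 4 are named in every comparison, and from each list the genes with an adjusted p under 0.05 or, where there was none, the gene with the smallest p. Called genes within 500 kb (at most 3 for each gene) and the 3 genes with the highest correlation are named as well.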

Additional observations from a re-analysis of the deposited data

How the results depend on the processing

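Counts of called genes among Art2a, Art2b, P2rx7 and Cd38 were 0 in the 4 comparisons and stayed 0 under all alternatives but 3. In HP1γ KO against WT, DESeq2 and edgeR without a filter on low counts each called 1 gene, Art2a, whose adjusted p lay between 0.000238 and 0.178 over 9 alternatives and between 0.0597 and 0.257 with a sample left out, its log2 fold change staying between -1.32 and -0.94. Between the WT lines the count ranged from 0 to 1 with a sample left out, the 1 being P2rx7 without HP1γ WT replicate 4. That fit called 2185 of 15097 genes. With a sample left out, counts stayed at 0 in the HP1α line and in the test between lines. The cause was not tested.

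Signs turned only with a sample left out, for differences that were never called. The log2 fold change ranged from -0.14 to 0.15 for Art2b in HP1α KO, from -0.19 to 0.22 for Cd38 in HP1γ KO, from -0.016 to 0.31 for Cd38 between the WT lines, and in the test between lines from -0.0936 to 0.25 for P2rx7 and from -0.41 to 0.00626 for Cd38. The log2 ratio of Art2a to Art2b differed by between -0.64 and 0.0194 in HP1α KO, between -0.77 and -0.54 in HP1γ KO and between -0.94 and -0.28 between the WT lines, and by -0.12, -0.70 and -0.56 from TPM. With 3 against 4 samples the smallest exact permutation p is 0.0571, which says nothing about stability. Depth did not limit detection, since the lowest count was 58.8, but it limits Art2a more than P2rx7.

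Samples of the compared groups share replicate numbers, but they were not taken as pairs, since no label says what a number stands for and the correlation of same-numbered deviations was not over 0.1 in every pair of any comparison. It ran from 0.0940 to 0.228 in the HP1α line (over 0.1 in 3 of 4 pairs), from 0.00286 to 0.153 in the HP1γ line and from -0.204 to -0.0654 between the WT lines. As a hint from the data, samples correlated best with their own number in 3 of 4 cases in the HP1α line, 1 of 4 in the HP1γ line and 0 of 4 between the WT lines. With the replicate block the count of called genes stayed 0 of 4 in each comparison, and the adjusted p of Art2a in HP1γ KO was 0.108 in edgeR. In the same blocked fit Art2b was at -0.53 (SE 0.108, adjusted p = 0.121) and Cd38 at 0.04 (SE 0.0956, adjusted p = 0.840). These SE were smaller than without the block. Over all genes the calls went from 49 to 60 in HP1γ KO and from 1896 to 577 between the WT lines. Over all genes, calls in HP1γ KO ran from 17 (limma on log2(TPM + 1)) to 252 (DESeq2), and between the WT lines from 577 to 2823 (DESeq2). In the test between lines DESeq2 called 79 genes against 8.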
